A study of Homo sapiens with 6 samples.

Results

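The claudins CLDN1, CLDN2, CLDN3, CLDN4, CLDN7, CLDN10, CLDN11 and CLDN16, with occludin (OCLN) and the epithelial cell adhesion molecule EPCAM, were followed as the tight junction genes of renal epithelium. These 10 genes were chosen by name, taking the entry on the primary chromosome, out of 41497 named entries. Poly(A) RNA was sequenced from HK2, an immortalised human line derived from proximal tubular epithelium, with 3 Control libraries and 3 libraries treated with TGF-β1, all at 24 h. All 6 libraries came from this 1 line with the WT genotype, and whether the replicates were separate cultures is not stated, so p values measure only the spread between these libraries. Library totals ranged from 21938622 to 26906067 counts. The labels give no TGF-β1 concentration. The authors' methods give one for their TGF-β treatment experiments in general, without naming these libraries. Whether the Control cells were kept without serum like treated cells is not stated.

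Claudins are tetraspan proteins that meet between neighbouring cells and set which ions pass the paracellular route. Some seal it, such as CLDN1, CLDN3, CLDN7 and CLDN11, and others form selective pores, such as CLDN2 and CLDN10. In the nephron each segment has its own set: CLDN2 is known as the cation and water pore of the proximal tubule, and CLDN16 for magnesium reabsorption in the thick ascending limb. Occludin is a further tetraspan protein of the strand, and EPCAM binds CLDN7 and protects it from degradation. TGF-β1 is a fibrosis cytokine known to induce SNAI1, a zinc finger repressor of junction genes.

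The label of the cells was compared with marker genes. The proximal tubule genes LRP2, a receptor for filtered protein, and SLC22A6, an anion transporter, had 0 reads in all 6 libraries, whereas GGT1, an enzyme of the brush border, had 75.6 CPM (counts scaled to the TMM-adjusted library size) in Control and 50.5 CPM after TGF-β1. The summed level of the 9 proximal tubule markers was 72.5 to 85.4 CPM in Control and 49.9 to 60.7 CPM after TGF-β1, most of it GGT1. Of 4 tested, GGT1 was lower, the water channel AQP1 rose by 2.10 on the log2 scale from 0.397 CPM (by 2.73 without Control replicate 3) and the receptor CUBN, named after its value was seen, rose by 0.82 from 0.485 CPM. The 9 distal nephron markers summed to 9.57 to 10.3 CPM and 2.48 to 3.10 CPM, with UMOD, CALB1, SCNN1B and SCNN1G at 0. Among them SCNN1A, a sodium channel subunit, fell by 3.74 on the log2 scale. The water channel AQP3 rose by 2.64, from 6, 11 and 5 reads in the Control libraries to 53, 53 and 35 in the treated ones. The 5 fibroblast markers summed to 58.8 to 68.4 CPM and 56.7 to 57.8 CPM, most of it the matrix protein LUM. LUM was lower (61.7 and 51.0 CPM, log2 fold change -0.28), and the receptor PDGFRB was higher (0.551 and 5.79 CPM, 3.38). The 5 endothelial markers stayed at or below 3.34 CPM in sum in every library (CDH5 was at 62 reads over the Control libraries and at 0 over the treated ones, and ESAM rose by 1.68), and the 5 leukocyte markers at or below 3.49 CPM, with CD14 falling by 1.72. AQP1, CUBN and AQP3 met the count filter only through their treated libraries, and CDH5 only through its Control libraries. Their calls are tied to that filter. The part of the marker genes in the results on junction genes was not tested. Of the genes known to respond to TGF-β1, COL1A1 rose by 3.30 on the log2 scale, TGFBI by 2.33, SMAD7 by 1.64 and SKIL by 1.08.

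Of the 10 genes, 6 had enough reads to be tested, and 5 of these were lower after TGF-β1 while 0 were higher. Across all 14860 entries tested, 44.3% were called changed, 22.1% lower and 22.2% higher, where called means an adjusted p under 0.05 in the edgeR quasi-likelihood test. A call with a fall of at least 2-fold was made for 4 of the 6, against 5.38% of all entries, and one with a rise of at least 2-fold for 0, against 3.68%. All 6 had every TGF-β1 library below every Control library, which held for 27.7% of all entries, while 27.9% did so in the other direction. The median log2 fold change of the 6 genes was -1.15, against 0.01 over all entries. Because the RNA came from whole cultures, fewer cells with a message and less message per cell cannot be told apart. Scaling by total counts only moved the median of all entries by -0.11 on the log2 scale and gave 2134 higher and 4590 lower calls in place of 3294 and 3288.

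**Figure D1:**
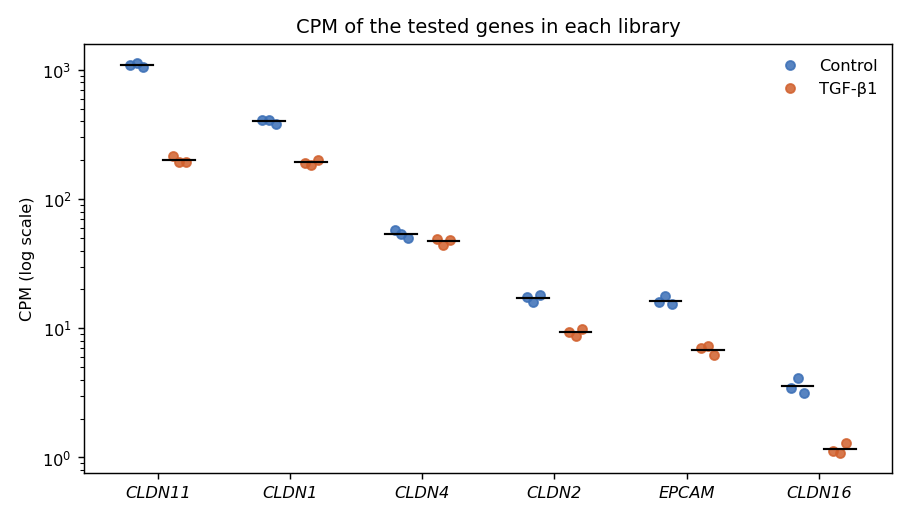
CPM on a log axis of the 6 tested genes in each of the 3 Control and 3 TGF-β1 libraries, with a bar at each group mean. CLDN11 dropped from a mean of 1084 to 201 CPM, whereas the CLDN4 means of 53.4 and 47.1 CPM lie close together.

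CLDN11, a sealing claudin best known from myelin and from the blood-testis barrier, was the most abundant of the 10 genes and fell the most. It lies on chromosome 3 at 170418868 to 170434691 of hg38, on the plus strand. Its Control libraries had 1083, 1121 and 1049 CPM, and its TGF-β1 libraries 216, 193 and 195 CPM. The lowest Control library was far above the highest treated one. The means were 1084 ± 36.4 and 201 ± 12.6 CPM (SD, n = 3 each), a 5.39-fold fall, with a log2 fold change of -2.43 ± 0.06 (SE), a 95% interval of -2.57 to -2.29 and an edgeR adjusted p of 6.6e-10. On the TPM scale, which divides by gene length and by the library's sum, its rank among 36940 names on the primary chromosomes moved from 95 to 99 in Control to 743 to 803 after TGF-β1.

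The promoters of 9 of the 10 genes were found in the RefSeq table of GRCh38.p14, in 15 windows of 300 bases, from 250 bases before a transcription start to 50 after it. EPCAM was not matched. Each window was searched on both strands for 4 short motifs of factors that act in this setting: the E-box CACCTG of SNAI1, the SMAD box GTCT, the AP-1 site TGANTCA and the Grainyhead core AACCGG. The windows of CLDN11 and of 3 contrasting genes are shown as the 250 bases before the start. CLDN11 had the largest fall, CLDN1 was the next most abundant, CLDN4 was not called, and CLDN7 had the most E-boxes. Capitals mark E-box, AP-1 and Grainyhead matches, and the frequent SMAD box is left in lower case.
CLDN11, chr3:170418618-170418867, plus strand: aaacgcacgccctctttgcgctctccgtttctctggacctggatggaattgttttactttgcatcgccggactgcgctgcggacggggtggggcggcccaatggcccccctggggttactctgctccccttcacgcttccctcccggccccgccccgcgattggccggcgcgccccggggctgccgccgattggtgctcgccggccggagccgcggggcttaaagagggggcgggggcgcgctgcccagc
CLDN1, chr3:190322447-190322696, minus strand: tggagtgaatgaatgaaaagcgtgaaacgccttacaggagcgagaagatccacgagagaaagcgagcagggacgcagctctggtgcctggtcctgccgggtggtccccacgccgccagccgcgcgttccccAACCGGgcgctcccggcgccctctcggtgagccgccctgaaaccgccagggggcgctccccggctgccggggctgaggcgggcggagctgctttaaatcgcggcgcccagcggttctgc
CLDN4, chr7:73830746-73830995, plus strand: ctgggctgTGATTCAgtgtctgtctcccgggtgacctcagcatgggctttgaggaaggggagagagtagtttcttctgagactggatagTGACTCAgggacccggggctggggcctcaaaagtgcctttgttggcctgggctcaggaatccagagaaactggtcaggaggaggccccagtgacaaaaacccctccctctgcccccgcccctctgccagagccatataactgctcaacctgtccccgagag
CLDN7, second window, chr17:7262479-7262728, minus strand: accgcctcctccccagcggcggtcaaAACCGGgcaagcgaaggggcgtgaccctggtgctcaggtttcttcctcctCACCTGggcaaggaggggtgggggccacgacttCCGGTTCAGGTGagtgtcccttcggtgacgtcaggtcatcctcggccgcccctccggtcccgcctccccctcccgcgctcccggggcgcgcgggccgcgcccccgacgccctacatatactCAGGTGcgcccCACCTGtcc

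The CLDN11 sequence held none of the 4 motifs, and the second CLDN11 window held none either. CLDN1 had 1 Grainyhead core, at position -119 from its start. CLDN4 had AP-1 sites starting at -242 and -161 from its start. The second CLDN7 window held 5 E-boxes, 4 of them in the bases shown, where the E-box at -135 directly follows a Grainyhead core. The E-box was found in windows of 4 of the 9 genes, CLDN3, CLDN7, CLDN16 and OCLN, and in none of CLDN1, CLDN2, CLDN4, CLDN10 and CLDN11. By window this was 5 of 15, and the windows of OCLN, both with an E-box, overlap. Over 35116 windows of this length, 20.6% held the E-box, 84.0% the SMAD box, 7.71% the AP-1 site and 7.23% the Grainyhead core. Among the E-box genes, CLDN3, CLDN7 and OCLN had too few reads to be tested. CLDN16, with its E-box at position 21 of its second window only, was called lower. So were CLDN1, CLDN2 and CLDN11, which had none, while CLDN4, also with none, was not called. The part of the motifs in these changes was not tested.

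CLDN1, the main sealing claudin of the epidermis and present in many epithelia, lies on chromosome 3 at 190305707 to 190322446 on the minus strand. It had 406, 410 and 382 CPM in Control and 191, 185 and 201 CPM after TGF-β1, with no overlap between the groups. The means were 399 ± 15.0 and 192 ± 8.41 CPM (SD, n = 3 each). The log2 fold change was -1.05 ± 0.06 with a 95% interval of -1.18 to -0.93 and an edgeR adjusted p of 9.7e-08.

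CLDN4, a claudin of the distal nephron and collecting duct, was not called. It lies on chromosome 7 at 73830996 to 73832690 on the plus strand. Its Control libraries had 57.2, 53.3 and 49.8 CPM, and its TGF-β1 libraries 49.2, 44.1 and 47.9 CPM. The groups did not overlap, but the lowest Control and the highest treated library were nearly equal. The log2 fold change was -0.18 ± 0.07 with a 95% interval of -0.34 to -0.03, and the edgeR adjusted p of 0.0539 missed the threshold. Of 18 alternatives, 6 called it lower, including scaling by total counts only (-0.29), leaving out Control replicate 3 (-0.23, adjusted p 0.0352) and leaving out TGF-β1 replicate 1 (-0.23, adjusted p 0.0106). Apart from the test against a 2-fold limit, adjusted p values ran from 0.00538 to 0.214. Some of the 18 could not change the call. A prior count of 0.5 or 2 leaves the p value of the main fit as it is, and a 2-fold limit cannot call a change of this size.

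CLDN2, the cation and water pore, lies on chromosome X at 106900164 to 106930861 on the plus strand. It had 17.5, 15.9 and 18.2 CPM in Control and 9.37, 8.64 and 9.84 CPM after TGF-β1. Every treated library was below every Control library. Its log2 fold change was -0.89 ± 0.09, with a 95% interval of -1.08 to -0.70 and an edgeR adjusted p of 1.2e-05. CLDN2 shares 341 exon bases with RIPPLY1 on the other strand, and RIPPLY1 had 0.0977 CPM in Control and 0.127 CPM after TGF-β1.

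CLDN16, of the thick ascending limb, had a low level that fell further. Reads numbered 78, 101 and 74 in the Control libraries and 29, 26 and 27 in the treated ones, so that the groups were well apart. The means were 3.58 ± 0.499 and 1.16 ± 0.114 CPM (SD, n = 3 each), and the log2 fold change was -1.63 ± 0.18, with a 95% interval of -2.03 to -1.22 and an edgeR adjusted p of 3.6e-05. CLDN16 lies on chromosome 3 at 190290361 to 190412138 on the plus strand, and CLDN1 lies within this span on the minus strand. The 2 genes share 0 exon bases, but a CLDN16 exon of 167 bases, at 190314893 to 190315059, lies in an intron of CLDN1. CLDN16 reads were 0.826% to 1.01% of CLDN1 reads in Control and 0.581% to 0.640% after TGF-β1. Whether reads were counted by strand is not stated, so reads of unspliced CLDN1 RNA cannot be told from CLDN16 reads in that exon.

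EPCAM, a homophilic adhesion protein and a partner of claudins, lies on chromosome 2 at 47369311 to 47387020 on the plus strand. Its Control libraries had 16.1, 17.7 and 15.4 CPM, and its TGF-β1 libraries 7.07, 7.28 and 6.21 CPM. The groups did not overlap. The means were 16.4 ± 1.17 and 6.85 ± 0.568 CPM (SD, n = 3 each), and the log2 fold change was -1.25 ± 0.10, with a 95% interval of -1.47 to -1.04 and an edgeR adjusted p of 1.7e-06. Against a limit of 2-fold, CLDN11 and CLDN16 passed the edgeR test, while EPCAM (adjusted p 0.0561) and CLDN1 (adjusted p 0.917) did not.

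The other 4 genes had too few reads for the fit. CLDN3, a sealing claudin, was counted 9, 3 and 8 times in the Control libraries and 2, 1 and 1 times in the treated ones, without overlap. The read ratio was 0.184 with a 95% exact binomial interval of 0.0457 to 0.549, which covers counting error only. The exact two-sided permutation test gave p = 0.1, the smallest that 3 against 3 libraries allow. A fit without the count filter, over 25944 entries, gave a log2 fold change of -2.23 with an edgeR adjusted p of 0.0146. The p values of that fit are not comparable with those of the main one. Its edgeR adjusted p for CLDN1 was 3.8e-28 in place of 9.7e-08 at a similar fold change, while that of CLDN4 was 0.0569. CLDN3 is therefore not counted as called. CLDN10, a channel-forming claudin with segment-specific isoforms, was counted 2, 7 and 6 times in the Control libraries and 8, 6 and 9 times in the treated ones. Its ratio of 1.41 (0.705 to 2.91, exact permutation p = 0.3) did not differ beyond the counting error, and it shares 1558 exon bases with DZIP1 on the other strand, which leaves its reads uncertain.

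For OCLN the Control libraries held 5, 1 and 4 reads and the treated libraries 4, 6 and 1. On this entry the ratio was 1.01 with a 95% interval of 0.390 to 2.66 and an exact permutation p of 0.9. A difference on it was not detectable at this depth. CLDN7, the claudin bound by EPCAM, had 0 reads in the 3 Control libraries and 1 read in TGF-β1 replicate 1. For Control, 0 reads would allow a level of up to 0.0442 CPM over the group if every CLDN7 read was counted on this entry. Whether that was so is not known, so the value is no upper limit on the message.

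Both OCLN and CLDN7 have a second entry on an extra contig of the reference. The CLDN7 copy had 1597 bases, as many as the gene itself, with 0 reads in all 6 libraries. The OCLN copy had 6297 of 6321 bases, and the Control libraries held 2, 1 and 9 reads on it, the treated libraries 1, 0 and 1. The OCLN read ratio leaves out the reads on this copy, so it is no ratio for the whole OCLN message. Of 717 protein-coding names with a copy of at least 95% of their length, 80.5% had a mean of under 10 reads on the primary chromosome, with a median of 0 reads. Of 17819 names with a single entry, 32.5% were under 10, with a median of 259 reads. The contig that carries CLDN7 held 7 coding names with such a copy, CLDN7 itself among them. Of these, 5 had a mean of under 10 reads on the primary chromosome, with GPS2, NEURL4 and KCTD11 at 0. That of OCLN held 8 such names, OCLN itself among them, and 5 were under 10 reads on the primary chromosome, with AK6 at 0. The 4 names at 0 were chosen after their values were seen. Because CLDN7 and OCLN are counted in, these counts are no separate evidence on them. How reads matching both a gene and its copy were counted is not stated, and the part of the copies in the near-zero values of CLDN7 and OCLN was not tested.

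**Figure D2:**
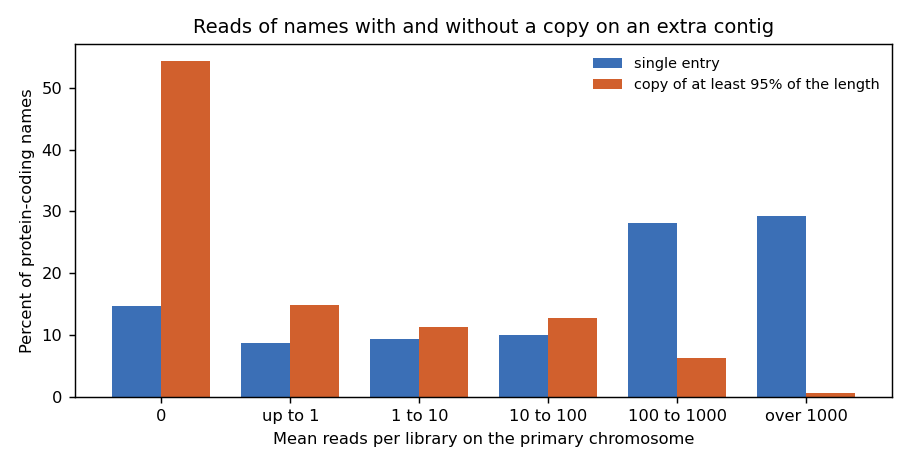
Percent of protein-coding names in each range of mean reads per library, for the 17819 names with a single entry and the 717 with a copy of at least 95% of their length on an extra contig. Names with a copy were at 0 reads in 54.4% of cases, against 14.6% of single entries.

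Levels of the claudins were compared with each other on the TPM scale. The TPM of all 24 claudin genes listed summed to 1970 ± 43.0 in Control and 636 ± 9.36 after TGF-β1 (SD, n = 3 each), which is 32.3% of Control. CLDN11 accounted for 78.1% of this fall and CLDN1 for 16%. CLDN11 made up 63.8 ± 0.399% of claudin TPM in Control and 33.8 ± 1.498% after TGF-β1. The share of CLDN1 moved from 19.6 ± 0.299% to 26.9 ± 0.994%, that of CLDN12 from 9.36 ± 0.642% to 21.0 ± 0.995%, and that of CLDN4 from 5.32 ± 0.321% to 13.4 ± 0.405%. These shares sum to a whole, so a larger share is not a rise in message: CLDN1 and CLDN12 messages fell. The order in Control was CLDN11, CLDN1, CLDN12, CLDN4, CLDN2, CLDN15 and CLDN16. After TGF-β1 CLDN11 still had the highest mean, at 215 ± 7.28 TPM against 171 ± 8.83 TPM for CLDN1, with no overlap, while CLDN15 (13.4 TPM) stood above CLDN2 (8.34 TPM). The 10 genes together had 1804 ± 44.8 TPM in Control and 494 ± 8.77 TPM after TGF-β1, or 27.4% of Control.

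**Figure D3:**
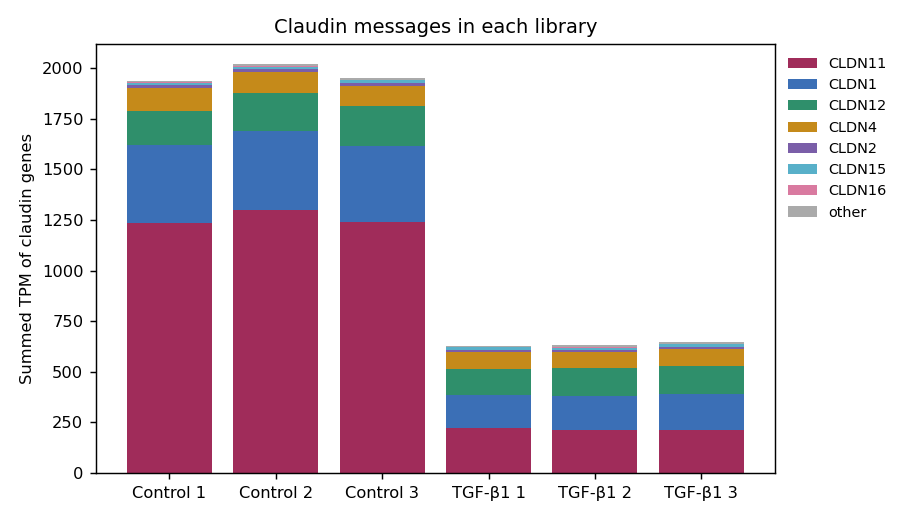
Summed TPM of claudin genes in each library, stacked by gene. The 3 Control libraries reach 1940 to 2019 TPM and the 3 TGF-β1 libraries 630 to 646 TPM, and most of the difference is CLDN11.

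Whether the falls were unequal was asked within each library, from the log2 ratio of 2 genes, which does not depend on the scaling. The ratio of CLDN11 to CLDN1 moved by -1.38 ± 0.07 (SE), that of CLDN1 to CLDN4 by -0.87 ± 0.05, and that of EPCAM to CLDN4 by -1.08 ± 0.12. For each of these 3 pairs the groups did not overlap and the exact two-sided permutation test gave p = 0.1, the smallest possible, or 0.133 after Benjamini-Hochberg adjustment over 4 pairs. The ratio of CLDN2 to CLDN1 moved by 0.16 ± 0.09, with an exact permutation p of 0.2. The 4 pairs were not among the planned comparisons and were picked with results of these data known. The adjustment leaves out all other pairs.

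Of the 16 claudins outside the 10 genes, 5 were tested, with 2 higher and 2 lower, and 6 had no reads. Over all entries 44.3% were called in either direction, so a count over 5 genes says little. CLDN14, a claudin of the thick ascending limb known to oppose CLDN16, had 0.620, 0.981 and 0.937 CPM in Control and 2.30, 2.94 and 2.39 CPM after TGF-β1. It rose without overlap between groups by 1.58 ± 0.22 on the log2 scale, with an edgeR adjusted p of 0.000197, from a level near 1 CPM. The other calls, named after their values were seen, were CLDN15 (0.45), CLDN12 (-0.34) and CLDN20 (-0.81).

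Other membrane proteins of the junction, tricellular and adhesion proteins among them, had 7 of 10 genes tested, with 1 higher and 5 lower and a median log2 fold change of -0.53. JAM2, a junctional adhesion molecule, was the one that rose, from 30.6 ± 0.726 to 51.4 ± 3.18 CPM (log2 fold change 0.75 ± 0.06). The 5 lower genes ran from -0.60 for CRB3, an apical polarity protein, to -0.18 for F11R, another adhesion molecule. Of 15 scaffold and polarity genes 14 were tested, with 0 higher, 7 lower and a median of -0.22. Beside the counts of both lists, 22.2% of all entries were called higher and 22.1% lower. PARD6B, a polarity adaptor, fell the most, from 37.0 ± 1.04 to 16.3 ± 2.50 CPM (-1.17 ± 0.10). TJP1, the scaffold ZO-1, had 68, 97 and 595 reads after TGF-β1 against 151, 117 and 110 in Control, so TGF-β1 replicate 3 stood apart, and it also has copies on extra contigs. Its log2 fold change was 1.10 ± 1.09 and was not called with all libraries. Without that replicate it was -0.71, with an edgeR adjusted p of 0.0313. Both values are for the entry on the primary chromosome only. A TJP1 copy held 24, 17 and 30 reads in Control and 99, 48 and 97 after TGF-β1, the other way. The fall of the primary entry is therefore not given as a fall of TJP1.

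Among 4 genes that act with EPCAM, 2 were tested. SPINT1, an inhibitor of the protease matriptase that cleaves EPCAM, fell from 24.4 ± 1.39 to 14.6 ± 2.06 CPM (log2 fold change -0.74 ± 0.10). SPINT2, a related inhibitor, had 219 ± 9.70 and 199 ± 5.99 CPM, and its log2 fold change of -0.14 missed the edgeR threshold with an adjusted p of 0.0558. It was called without TGF-β1 replicate 1, which gives 2 calls in this list. The protease gene ST14 had 4 to 10 reads per library and was not tested.

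**Figure D4:**
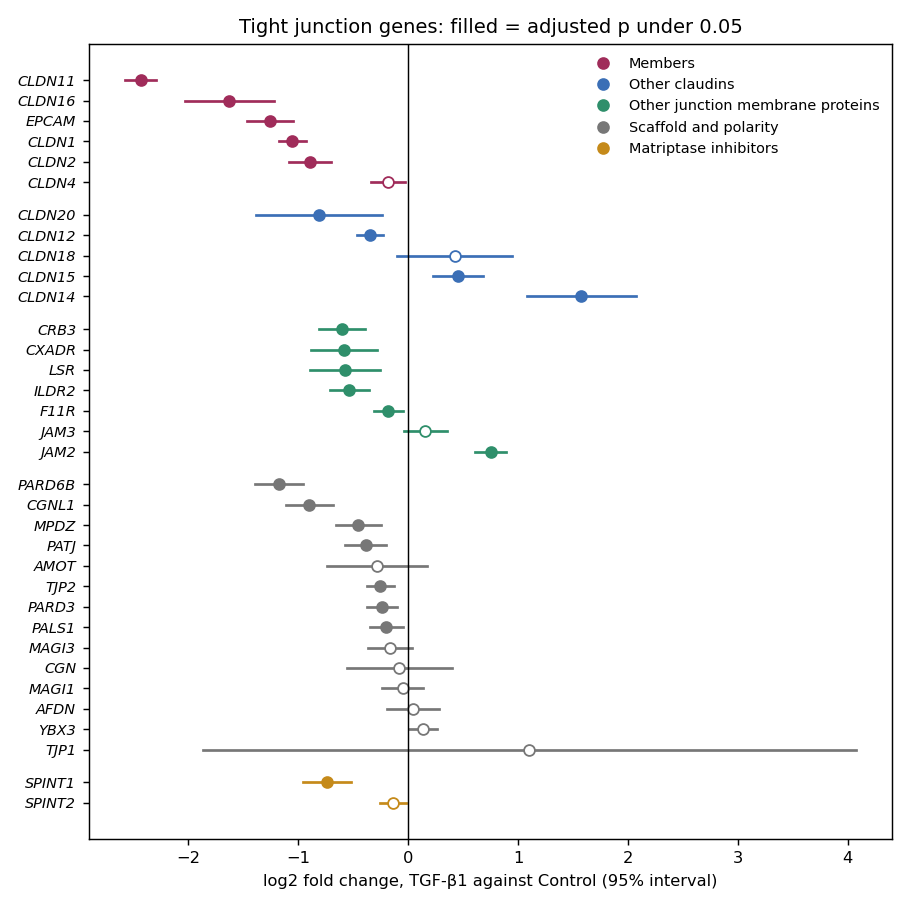
Log2 fold change with its 95% interval for the tested genes of each list, where members are the claudins and EPCAM of the 10 genes, and filled points are called. Members run from -2.43 for CLDN11 to -0.18 for CLDN4, and the interval of TJP1 is the widest, from -1.87 to 4.07.

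Transcription factors known to act on epithelial junction genes moved in both directions. SNAI1 rose from 9.13, 10.8 and 8.91 CPM in Control to 51.5, 42.0 and 42.3 CPM, with no overlap between groups (log2 fold change 2.23 ± 0.11, edgeR adjusted p 5.2e-08). ELF3, an epithelial factor of the ETS family, had 218, 210 and 202 CPM in Control and 75.1, 71.7 and 68.8 CPM after TGF-β1, again without overlap (-1.55 ± 0.06, edgeR adjusted p 7.0e-09). Of 11 such genes 7 were tested, with 2 higher and 4 lower, against 22.2% higher and 22.1% lower over all entries. Without Control replicate 3, 3 of them were called. Besides ELF3, the lower calls were the Grainyhead factor GRHL1 (-0.78) and the repressors TWIST1 (-0.31) and ZEB2 (-0.24), and besides SNAI1 the higher call was the repressor SNAI2 (0.36), all 4 named after their values were seen. GRHL2, a Grainyhead factor known to activate CLDN4 in renal epithelium, and OVOL1 had no reads in any library.

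The nearest tested genes on either side were compared with the 6 tested genes, except on 1 side of EPCAM. SKIL, which encodes a repressor of SMAD signalling, ends 22 kb before CLDN11 and rose from 149 ± 8.10 to 313 ± 26.3 CPM, while CLDN11 fell. On its other side SLC7A14-AS1, 32.6 kb away, had 0.778 CPM in Control and 0.0574 CPM after TGF-β1 and was lower (-3.67 ± 0.55). SLC7A14-AS1 met the count filter only through its Control libraries, so its call is tied to that filter. Beside CLDN2, TBC1D8B at 24 kb (0.44) and MORC4 at 9.4 kb (0.23) were both higher. CALM2, 192.4 kb from EPCAM, had a log2 fold change of 0.11 and was not called. Around CLDN1 and CLDN16, P3H2 was not called (0.06) and IL1RAP was higher (0.76). ABHD11, 92.1 kb from CLDN4, was lower (-0.69).

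**Figure D5:**
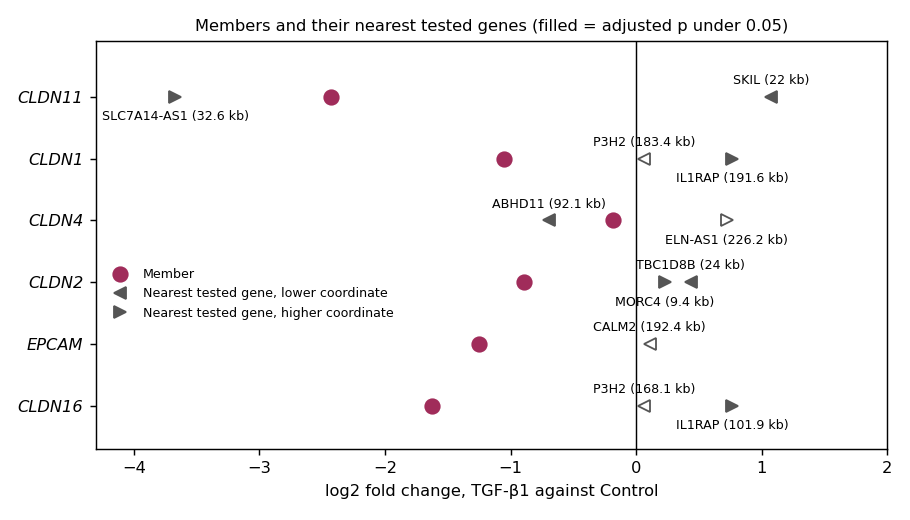
Log2 fold change of each tested gene (circle) and of the nearest tested gene on either side (triangles, with the distance in kb), where filled triangles are called and 1 side of EPCAM is not shown. SKIL sits at 1.08 beside CLDN11 at -2.43.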

How the data were processed

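Libraries of oligo(dT)-purified mRNA, primed with random hexamers, were assigned to Control or TGF-β1 from their labelled treatment. The authors deposited raw counts per gene, with TPM and FPKM values that the authors computed. Their processing notes name CASAVA, featureCounts 2.0.1, DESeq2 1.16.1 and hg38. The aligner and the strand setting are not given in the sources used here. FPKM values were not used. Each table listed 42095 entries, and 7 broken records were rejoined. The 598 entries without a name (0.396% to 0.464% of counts) were left out, 4519 named entries lay off the primary chromosomes, and 2175 names had more than 1 entry.

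Counts were filtered with filterByExpr (minimum count 10), scaled with TMM and compared with the two-sided quasi-likelihood test of edgeR 4.0.16 with robust dispersion (R 4.3.3), adjusted by Benjamini-Hochberg over 14860 entries and called at 0.05. DESeq2 1.42.0 and limma 3.58.1 were alternatives. Other software was Python 3.11.15, pandas 2.3.3 and scipy 1.17.1. Besides the 10 genes, genes of a list were named if called and changed at least 2-fold, or else the largest change. The members and lists were chosen with earlier results of these data known. PCR copies could not be told from separate molecules. Some genes of the lists and of the neighbour comparison are not reported here.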

Additional observations from a re-analysis of the deposited data

How the results depend on the processing

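CLDN11, CLDN1, CLDN2, CLDN16 and EPCAM kept their direction in every alternative run, and their calls, except that CLDN1, CLDN2 and EPCAM lost theirs in the test against a 2-fold limit. Under that limit 657 entries in all, 2 of the 10 genes, 0 other claudins, 0 junction membrane genes, 0 scaffold genes, 0 EPCAM partners and 2 regulators were called. With a mean of at least 50 counts, 2 other claudins were called. Both tested EPCAM partners, 2 in all, were called under DESeq2, RLE size factors, total counts only, a mean of at least 50 counts, entries on primary chromosomes only (chosen after seeing the data), the replicate block and without TGF-β1 replicate 1. Without Control replicate 3, 3 regulators were called. Computed as CPM per kilobase, the 10 genes together were at 29.8% of Control in place of 27.4%.

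Leaving out each library in turn gave 5333 to 7196 calls in all, 5 to 6 lower and 0 to 0 higher among the 10 genes, 3 to 4 other claudins, 5 to 7 junction membrane genes, 6 to 8 scaffold genes, 1 to 2 EPCAM partners, 3 to 7 regulators, and 27.2% to 27.8% for the summed TPM. It gave read ratios of 0.141 to 0.226 for CLDN3, 1.10 to 1.73 for CLDN10 and 0.698 to 1.37 for OCLN. Deviations from the group means correlated at 0.111, -0.0117 and 0.0762 between same-numbered libraries, so the numbers were not taken as pairs. With the replicate block 6790 entries were called, and CLDN4 was called (log2 fold change -0.18, edgeR adjusted p 0.0400). With 4 to 23 reads per group, the read ratios of CLDN3, CLDN10 and OCLN have wide intervals, and CLDN7 has none.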
